A study of Homo sapiens with 18 samples.

Results

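The genes described here are 32 established transcriptional targets of p53, among the 19775 genes that the arrays of the series measured. Members were the genes named in a fixed list, found through probe sets that the platform annotation assigns to a single gene by its current or earlier symbol. Of the 32 genes, 30 were measured, by 78 probe sets, and 2 were not analysed here. Where several probe sets measured a gene, the one with the highest mean log2 value on the 18 arrays was used. A filter kept genes with a log2 expression value over 4 on at least 3 arrays, which 29 members and 12159 genes in all passed. The remaining member, EDA2R, a receptor of the tumour necrosis factor family, lay between 3.27 and 3.68 on all 18 arrays and was not tested.

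p53 is a transcription factor that is kept at low levels in unstressed cells by the ubiquitin ligase MDM2 and accumulates after DNA damage and other stresses. It binds paired copies of a short palindromic element in its target genes. Its targets restrain p53 itself, hold the cell cycle, adjust metabolism, aid DNA repair and promote or limit cell death. Established prostate cancer lines differ in how far this pathway can still be switched on.

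The study used 22Rv1 and LNCaP, human prostate cancer cell lines with luminal features. In 22Rv1, 3 arrays came from cells overexpressing ONECUT2 (OC2), a homeobox transcription factor, 3 from cells labelled as knocked down by an ONECUT2 short hairpin RNA (shRNA), 3 from cells labelled scramble shRNA and 3 from control cells labelled Vehicle. In LNCaP, 3 arrays came from ONECUT2-overexpressing cells and 3 from control cells labelled Vehicle. ONECUT2 was delivered as a full-length cDNA in the pLenti-C-Myc-DDK-IRES-Puro lentiviral vector, and hairpins in a pLKO vector with a non-target hairpin as their control. The labels' protocols describe stable lines made with 5 µg/mL polybrene and 5 µg/mL puromycin. They list 2 hairpin clones for ONECUT2, while the sample titles point to 1. They do not say whether the Vehicle cells carried an empty vector or passed through selection. Nor do they say that replicate arrays stem from separate cultures, so p-values measure only the spread between these arrays. All cells grew in RPMI-1640 with fetal bovine serum, and total RNA was hybridised to Affymetrix U133 Plus 2.0 arrays.

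The 250 bases before the annotated gene start were read from RefSeq (GRCh38.p14) for the 24 measured members that the table holds, at 36 starts. The p53 half-site motif, which is palindromic, so that 1 pass covers both strands, was found in 5 of these 36 windows (13.9%) and in 5.57% of 35116 windows of the same length over all genes. The full element, made of 2 half-sites at most 13 bases apart, was found in 0 of the 36 and in 9 of all windows (0.026%). Matches lay before the start of AEN, PLK2 and RPS27L and before 1 of the 3 starts of FAS and of SESN1. PLK2 and RPS27L are shown because both fell in 22Rv1 overexpression and in arrays labelled ONECUT2 shRNA, whereas in LNCaP overexpression RPS27L rose and PLK2 did not pass the test. The capitals mark the half-site. Both genes lie on the minus strand, and sequences are written in the direction of transcription.
PLK2, chr5:58460087-58460336: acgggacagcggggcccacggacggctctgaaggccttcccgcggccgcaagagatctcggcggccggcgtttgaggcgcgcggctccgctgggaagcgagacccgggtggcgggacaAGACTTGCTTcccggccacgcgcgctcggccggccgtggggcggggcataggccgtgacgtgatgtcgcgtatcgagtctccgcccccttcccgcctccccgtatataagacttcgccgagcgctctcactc
RPS27L, chr15:63157478-63157727: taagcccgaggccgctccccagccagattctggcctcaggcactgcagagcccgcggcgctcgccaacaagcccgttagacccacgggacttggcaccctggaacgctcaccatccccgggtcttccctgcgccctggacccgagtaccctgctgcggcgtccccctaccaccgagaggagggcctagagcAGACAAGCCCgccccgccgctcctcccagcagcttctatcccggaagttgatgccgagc
The PLK2 match began at base -132 and the RPS27L match at base -59, counted from the gene start. A match is a sequence description, not evidence of binding.

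Several facts of the arrays bear on all results. ONECUT2 itself had log2 values of 8.59, 8.81 and 8.85 in 22Rv1 overexpression arrays, 8.46, 9.0 and 9.12 in those labelled ONECUT2 shRNA, 6.63, 6.71 and 7.08 in those labelled scramble, and 8.23, 8.15 and 8.25 in 22Rv1 control arrays. Against the label, it was thus 4.15-fold higher under ONECUT2 shRNA than under scramble, and both shRNA groups are called by their labels throughout. Of its 4 tested probe sets 3 were called higher there, with log2 changes between 1.74 and 2.05. The remaining probe set, which rose by 3.68 with overexpression in LNCaP, had a change of 0.17 there and was not called (ONECUT2, adjusted p = 0.792 by limma). In LNCaP ONECUT2 read 7.23, 7.31 and 7.28 with overexpression and 6.58, 6.53 and 6.72 in control. With overexpression in 22Rv1 its probe sets disagreed. Changes of 0.54, 1.13 and 1.16 were called higher, and 1 probe set was called lower at -0.97 (adjusted p = 0.00227 by limma). LNCaP overexpression replicate 1 stood apart: its mean correlation with the LNCaP controls over all probe sets was 0.969, against 0.948 and 0.953 for replicates 2 and 3. The log2 difference between the 3' and 5' control probe sets of a gene is used to gauge RNA integrity and labelling. For beta-actin it was 8.06 ± 0.70 in 22Rv1 overexpression and 4.11 ± 0.41 in 22Rv1 control (SD, n = 3 each). In LNCaP it was 2.85 ± 0.56 with overexpression and 2.94 ± 0.25 in control. For GAPDH, the other control gene, it was -0.435 ± 0.126 in 22Rv1 overexpression and -0.699 ± 0.086 in 22Rv1 control. The GAPDH difference was -0.68 ± 0.07 in both LNCaP groups. All 8 measured luminal prostate markers passed the filter, with list means between 7.29 and 7.43 in 22Rv1 overexpression and between 8.33 and 8.37 in 22Rv1 control. They lay between 8.10 and 8.20 in arrays labelled ONECUT2 shRNA and between 8.65 and 8.75 in scramble. In LNCaP these lay between 7.70 and 8.69 with overexpression and between 10.42 and 10.47 in control. None of 7 leukocyte and endothelial or 2 basal markers did. Of 6 stromal markers 4 passed, and the list mean over all 6 lay between 4.18 and 4.29 in 22Rv1 overexpression, 4.20 and 4.40 in arrays labelled ONECUT2 shRNA, 4.89 and 5.01 in scramble, and 4.65 and 4.73 in 22Rv1 control arrays. In LNCaP it lay between 4.70 and 4.81 with overexpression and between 4.31 and 4.42 in control. These list means hide markers that moved in opposite directions. With overexpression, 2 of the 8 luminal markers were called higher and 4 lower in each line (adjusted p under 0.05, limma). Of the 4 tested stromal markers 1 was higher and 2 lower in each line. Over all genes tested, 34.1% were higher and 28% lower in LNCaP, and 36.5% and 24.3% in 22Rv1. The part of these differences in the results below was not tested.

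LNCaP cells overexpressing ONECUT2 held the highest group mean for 23 of the 29 tested members, a position that they held for 23.1% of all genes tested. The exceptions were SESN2, highest in 22Rv1 overexpression, SFN, highest in the arrays labelled scramble, and POLH, PLK2, CCNG1 and PERP, highest in LNCaP control. The lowest mean lay in the arrays labelled ONECUT2 shRNA for 15 members, against 14% of all genes. It lay in 22Rv1 overexpression for 6 (GDF15, PLK2, CCNG1, AEN, PPM1D and TRIAP1). SFN spanned 5.97 on the log2 scale between its highest and lowest group means, PLK2 4.68 and PHLDA3 4.37, whereas PERP and POLH spanned 0.94 and 0.96. The lowest group mean of TP53I3 lay under 4, so its range was not measured. The colour map of all arrays shows these patterns against the controls of each line.

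**Figure D1:**
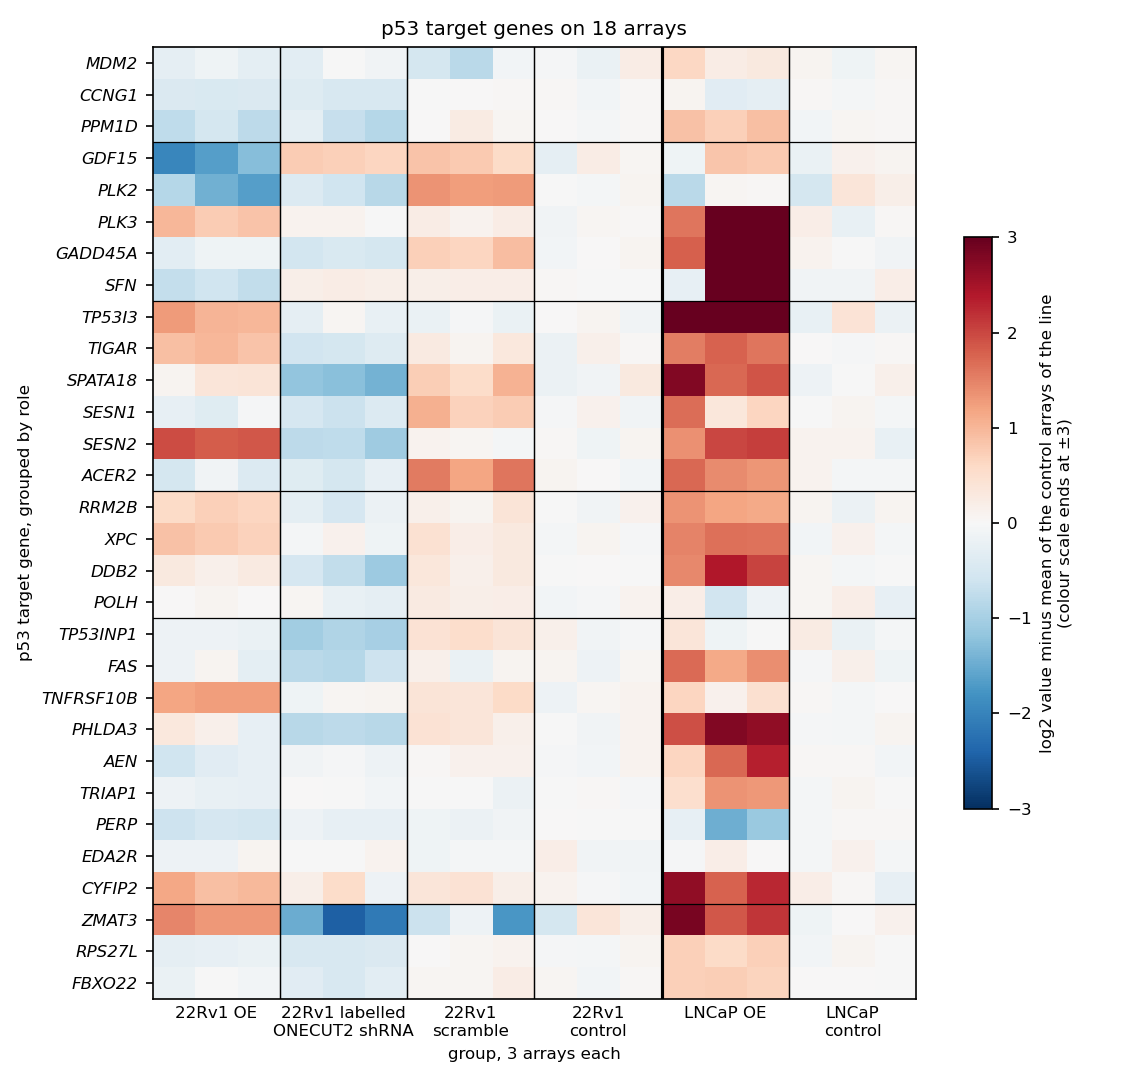
Each cell is the log2 value of a p53 target gene (rows, grouped by role) on 1 array (columns, 3 per group) minus the mean of the control arrays of the same line, with red above and blue below and the scale ending at 3 in each direction. The LNCaP overexpression columns are red for most genes, while the arrays labelled ONECUT2 shRNA are mostly blue.

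With ONECUT2 overexpression in LNCaP, p53 targets of every role rose. Of the 29 tested members 23 were higher and 1 was lower than in LNCaP control at an adjusted p under 0.05 (limma, Benjamini-Hochberg over all genes tested), where 34.1% of all genes were called higher, 28% lower and 62.2% in either direction. The median log2 change was 1.41 over the members and 0.09 over all genes. All 3 overexpression arrays lay above all 3 controls for 22 members, a pattern shown by 32% of all genes, and below them for 1, against 26.2%. On arrays of bulk RNA, fewer cells of a type and less RNA per cell cannot be told apart. Without replicate 1, 23 members were higher and 3 lower.

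Feedback regulators of p53 showed small changes. PPM1D, the phosphatase that dampens p53 and its kinases, read 10.94, 10.78 and 10.95 in LNCaP overexpression and 9.96, 10.11 and 10.09 in LNCaP control. It was 1.78-fold higher, a log2 change of 0.83 ± 0.13 (SE, adjusted p = 2.54e-05 by limma), and the groups did not overlap. MDM2 read 12.88, 12.49 and 12.56 with overexpression, against 12.34, 12.12 and 12.32 in control. Its log2 change of 0.38 ± 0.16 had an adjusted p of 0.0427 by limma, which became 0.127 without overexpression replicate 1. All 5 of its tested probe sets were called higher, with changes between 0.38 and 1.95. However, those with changes of 0.96 and 1.95 passed the filter only through overexpression arrays and had controls under 4. Their calls are therefore no support, and their changes are no measured sizes. The others changed by 0.38, 0.47 and 0.73. CCNG1, cyclin G1, which recruits a phosphatase to MDM2, had a log2 change of -0.18 ± 0.08 and did not pass (adjusted p = 0.0708 by limma), though without replicate 1 it was called lower.

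Among growth arrest genes GADD45A, SFN and PLK3 were called higher, and overexpression replicate 1 lay below the other replicates in each. GADD45A, a stress protein that binds cell cycle and repair factors, read 11.08, 12.79 and 12.49 with overexpression against 9.40, 9.28 and 9.20 in LNCaP control, a 7.08-fold rise. SFN, the 14-3-3 sigma protein that holds cyclin B complexes in the cytoplasm, read 6.95, 12.09 and 11.45 with overexpression and 7.09, 7.09 and 7.38 in control. Replicate 1 thus lay below every control while the other arrays lay far above them, so the groups overlapped. The fitted change was 2.98 ± 0.85 (adjusted p = 0.00642 by limma) with all arrays and 4.59 without replicate 1. In a fit of the LNCaP arrays alone its adjusted p was 0.0976. PLK3, a stress-activated polo-like kinase, read 4.43, 6.50 and 6.41 with overexpression and 3.00, 2.59 and 2.84 in control. Since all LNCaP control values lay under 4, its rise was at least 3.44-fold, and it passed the filter only through the overexpression arrays of both lines. It had to differ for that reason, and its place among the members called with overexpression is no support for the counts. GDF15, a secreted cytokine of the TGF-beta family, had a log2 change of 0.50 ± 0.22 (adjusted p = 0.0535 by limma), and by 0.81 without replicate 1, when it was called. PLK2, a polo-like kinase, had a log2 change of -0.24 ± 0.25 and did not pass.

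All 6 genes of metabolism and stress adaptation rose. TP53I3, an oxidoreductase, showed the largest change of any member: 9.02, 9.10 and 9.01 with overexpression, against 4.15, 4.78 and 4.18 in LNCaP control. That is 25.5-fold higher, a log2 change of 4.67 ± 0.15 (adjusted p = 2.58e-13 by limma), and replicate 1 did not differ from the others here. SPATA18, which acts in mitochondrial quality control, read 10.25, 9.20 and 9.36 with overexpression and 7.33, 7.46 and 7.63 in control, a 4.38-fold rise. The sestrins restrain the growth kinase complex mTORC1. SESN2 read 6.91, 7.54 and 7.62 with overexpression and 5.66, 5.66 and 5.33 in control, without overlap. SESN1 rose by 0.88 ± 0.24, led by replicate 1 at 11.38 beside 10.04 and 10.34, and by 0.48 without it. Its adjusted p of 0.00385 became 0.0711 in a fit of the LNCaP arrays alone (limma). TIGAR, which lowers glycolytic flux, rose 3.11-fold, and ACER2, a Golgi ceramidase, rose 2.80-fold.

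DNA repair genes rose in 3 of 4 cases. DDB2, which recognises ultraviolet lesions, read 8.12, 9.09 and 8.71 with overexpression, against 6.75, 6.63 and 6.66 in LNCaP control. XPC, the damage sensor of nucleotide excision repair, read 8.07, 8.26 and 8.23 with overexpression and 6.52, 6.73 and 6.54 in control. Both groups of values were fully separated, at 3.88-fold and 3.01-fold. RRM2B, the p53-inducible ribonucleotide reductase subunit, rose 2.34-fold. POLH, a translesion polymerase, had a log2 change of -0.18 ± 0.17 and did not pass, but was called lower without replicate 1, at -0.37.

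Of the 8 tested genes of death and survival 6 rose and 1 fell. PHLDA3, a membrane-binding protein that opposes AKT, read 9.04, 9.89 and 9.76 with overexpression and 7.07, 7.04 and 7.19 in LNCaP control, a 5.50-fold rise. CYFIP2, a subunit of the actin-regulating WAVE complex, read 9.20, 8.30 and 8.80 with overexpression against 6.73, 6.57 and 6.29 in control. FAS, the death receptor, read 9.29, 8.72 and 8.99 with overexpression against 7.57, 7.75 and 7.46 in control, and all 4 of its probe sets were called higher. None of these groups overlapped. AEN, an apoptosis-enhancing nuclease, rose 2.98-fold, and TRIAP1, a mitochondrial inhibitor of apoptosis, rose 2.07-fold. TNFRSF10B, a receptor for the death ligand TRAIL, rose by 0.42 ± 0.12 (adjusted p = 0.00503 by limma). With the mean of its probe sets the change was 0.07 and was no longer called. That mean includes probe sets near background, which averaged 3.18, 3.12 and 2.98 over all arrays. PERP, a membrane protein of desmosomes, was the member that fell: 12.63, 11.40 and 11.76 with overexpression, against 12.81, 12.90 and 12.91 in control. TP53INP1, a cofactor of p53-dependent death and autophagy, had a log2 change of 0.08 ± 0.13 and did not pass.

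All 3 members that act on RNA or protein rose. ZMAT3, a zinc finger protein that regulates splicing and RNA stability, read 10.66, 9.68 and 9.97 with overexpression and 7.68, 7.83 and 7.94 in LNCaP control. Its 4 probe sets gave log2 changes between 2.29 and 2.49. RPS27L, a ribosomal protein paralogue, read 14.53, 14.39 and 14.53 with overexpression and 13.73, 13.89 and 13.81 in control. FBXO22, the substrate receptor of a ubiquitin ligase, rose by 0.71 ± 0.09, but its 5 probe sets disagreed. One of them was called lower at -0.36, but it lay under 4 on all LNCaP overexpression arrays, so that size was not measured. Others, at 0.03 and 0.21, were not called, and the mean over all probe sets was 0.15 and not called. The plot of overexpression changes sets every member of LNCaP beside 22Rv1.

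**Figure D2:**
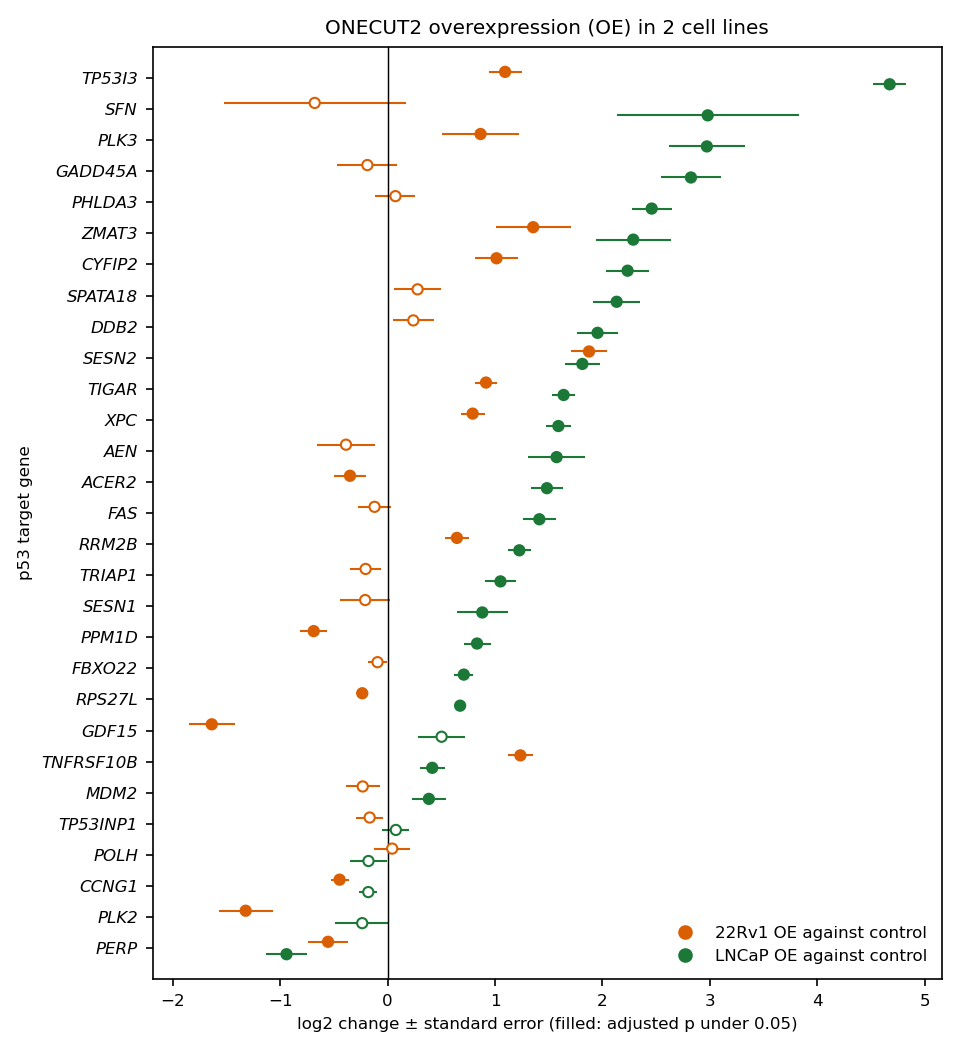
Log2 change of each tested p53 target gene with ONECUT2 overexpression against the control of the same line (horizontal axis, point with standard error), in 22Rv1 (orange) and LNCaP (green), filled where the adjusted p was under 0.05. LNCaP points lie right of the 22Rv1 points for most genes, with TP53I3 farthest at 4.67 and PERP left of 0 in both lines.

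Replicate 1 of the LNCaP overexpression group was lower than the mean of replicates 2 and 3 by over 0.5 for 10 of the 29 members, and higher by over 0.5 for 6, against 22.4% and 22.3% of all genes. SFN, PLK3, GADD45A and AEN were the lowest there, by -4.82, -2.03, -1.56 and -1.38. SESN1, PERP, SPATA18 and ZMAT3 were higher in replicate 1, by 1.19, 1.05, 0.97 and 0.83. The median SD of the members was 0.39 in this group and between 0.09 and 0.12 in the other 5 groups. Over all genes it was likewise higher there, at 0.30 against 0.10 to 0.12.

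With ONECUT2 overexpression in 22Rv1, p53 targets split. Of 29 tested members 9 were higher and 7 lower than in 22Rv1 control (adjusted p under 0.05, limma), while 36.5% of all genes were called higher, 24.3% lower and 60.8% in either direction. The members' shares were near that background. The median log2 change was -0.12 over the members and 0.10 over all genes. All 3 overexpression arrays lay above all controls for 10 members and below them for 12, against 44.7% and 32% of all genes. The actin 3' minus 5' difference given above differed between these groups, that of GAPDH far less so, and their part was not tested. With each array centred on the median of the genes tested, 8 members were higher and 11 lower. That centring moved the share of higher calls among all called genes to 46%, against 60.1%, and the median of all genes to -0.07.

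Metabolic and repair genes made up 5 of the 9 rises. SESN2 read 7.80, 7.67 and 7.71 in 22Rv1 overexpression and 5.88, 5.73 and 5.94 in 22Rv1 control, a 3.67-fold rise (log2 change 1.87 ± 0.17, adjusted p = 6.82e-08 by limma). The other tested probe set of SESN2 changed by only 0.13 and was not called (adjusted p = 0.481 by limma). TP53I3 read 4.82, 4.56 and 4.54 with overexpression, against 3.56, 3.64 and 3.44 in control. Because all control values lay under 4, the rise was at least 1.56-fold. TIGAR rose 1.89-fold, XPC 1.73-fold and RRM2B 1.56-fold, each without overlap between groups. The change of DDB2 was 0.24 ± 0.19, that of SPATA18 0.28 ± 0.22, that of SESN1 -0.21 ± 0.24 and that of POLH 0.04 ± 0.17, and none of these passed. Of the 5 tested POLH probe sets, however, 1 was called higher, at 0.62, and 1 lower, at -0.31.

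The other rises were in ZMAT3, TNFRSF10B, CYFIP2 and PLK3. ZMAT3 read 9.97, 9.79 and 9.80 with overexpression and 7.97, 8.86 and 8.67 in 22Rv1 control, and all 4 of its probe sets were called higher. TNFRSF10B read 11.61, 11.68 and 11.68 with overexpression against 10.26, 10.48 and 10.51 in control, a 2.36-fold rise in the TRAIL receptor. CYFIP2 rose 2.02-fold. PLK3 rose by at least 1.28-fold, since its control values lay under 4. Its call (adjusted p = 0.0449 by limma) was lost when any 1 array of either group was left out.

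The falls were led by growth arrest genes. GDF15 read 8.65, 8.96 and 9.33 in 22Rv1 overexpression, against 10.35, 10.84 and 10.66 in 22Rv1 control, a 3.11-fold fall (log2 change -1.64 ± 0.22, adjusted p = 6.4e-06 by limma). PLK2 read 5.42, 4.85 and 4.63 with overexpression and 6.27, 6.23 and 6.36 in control. Neither pair of groups overlapped. Of the p53 feedback genes, PPM1D fell 1.61-fold and CCNG1 1.36-fold, though PPM1D was not called with the mean of its probe sets, at -0.20. RPS27L fell by 0.24 on the log2 scale, and all 3 of its probe sets were called lower. PERP fell by 0.55, and its 3 probe sets were all called lower, but the call was lost without overexpression replicate 1. ACER2 had a log2 change of -0.35 ± 0.15, and its adjusted p of 0.0492 by limma was lost when any of 5 of the 6 arrays was left out.

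The members that did not pass in 22Rv1 included SFN, GADD45A, PHLDA3, SPATA18 and DDB2, which rose in LNCaP. GADD45A read 9.0, 9.20 and 9.19 in 22Rv1 overexpression and 9.25, 9.32 and 9.39 in 22Rv1 control. PHLDA3 read 6.30, 6.16 and 5.75 with overexpression, against 6.0, 5.90 and 6.10 in control. SFN read 12.24, 12.37 and 12.23 with overexpression and 12.98, 12.94 and 12.95 in control, so that the groups separated but the pooled spread left the change of -0.68 ± 0.85 uncalled. In a fit of these 6 arrays alone it was called, with an adjusted p of 1.51e-07 (limma). AEN, TRIAP1, FAS, TP53INP1 and FBXO22 had log2 changes between -0.39 and -0.09, and none passed. However, 2 of the 5 FBXO22 probe sets were called lower, at -0.74 and -0.85. MDM2 had a log2 change of -0.23 ± 0.16 on its main probe set, whereas its 5 probe sets ranged from -0.54 to 2.65 and 1 was called in each direction. The probe set called higher, at 2.65, passed the filter only through overexpression arrays and had controls under 4. Its call is therefore no support, and its change is no measured size.

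The effect of overexpression differed between the lines for most members. In the test of the difference itself (LNCaP effect minus 22Rv1 effect, limma), 22 members were higher, 1 lower and 6 not called, where 18.1% of all genes were called higher, 26.6% lower and 44.7% in either direction. The median difference was 1.09 over the members and -0.10 over all genes. Among growth arrest genes the difference was 3.01 ± 0.40 for GADD45A and 2.14 ± 0.31 for GDF15. PLK3 is 1 of the 22, but with controls under 4 in both lines its difference was not measurable. GDF15 fell in 22Rv1 and did not pass in LNCaP, as did PLK2, whose difference was 1.08 ± 0.36. TP53I3 rose in both lines and the difference was called, but its size was not measured, because the 22Rv1 controls lay under 4. With overexpression it stood at 9.01 to 9.10 in LNCaP and at 4.54 to 4.82 in 22Rv1. TNFRSF10B was the exception with the larger rise in 22Rv1, at -0.82 ± 0.16 (adjusted p = 0.00071 by limma). SESN2 differed by -0.06 with a 95% interval from -0.56 to 0.43, and ZMAT3 by 0.93 with an interval from -0.12 to 1.98, so neither was called. PERP, POLH, CCNG1 and TP53INP1 were not called either, though without LNCaP overexpression replicate 1 PERP was, at -0.74. Centring on the genes tested gave 24 higher and 1 lower, and moved the median of all genes to 0.11 and the share of higher calls among all called genes to 58.8%, against 40.4%.

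These overexpression comparisons share no array. All 9 members higher in 22Rv1 were among the 23 higher in LNCaP. Over all genes tested, 59.7% of those higher in 22Rv1 were higher in LNCaP. Of the 7 members lower in 22Rv1, 3 were higher in LNCaP (PPM1D, RPS27L and ACER2), against 10% of all genes lower in 22Rv1. With 23 of 29 members higher in LNCaP, overlaps of this kind follow largely from the counts alone. The shares of all genes rest on lower call rates and are no like background.

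In 22Rv1 arrays labelled ONECUT2 shRNA, p53 targets were lower than in those labelled scramble, while ONECUT2 itself was higher, against the label. Of 29 tested members 19 were lower and 0 higher (adjusted p under 0.05, limma), against 16.1% and 13.4% of all genes, or 29.6% in either direction. The median log2 change was -0.53 over the members and -0.03 over all genes. For 21 members all 3 arrays labelled ONECUT2 shRNA lay below all 3 labelled scramble, a pattern of 29.7% of all genes, and for 0 they lay above, against 23.9%. The stromal and luminal list means given above also differed between these groups without overlap, and their part was not tested.

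The deepest falls were in SPATA18, PLK2 and ACER2. SPATA18 read 6.50, 6.41 and 6.26 in arrays labelled ONECUT2 shRNA and 8.40, 8.22 and 8.71 in those labelled scramble, a 4.15-fold difference (log2 change -2.05 ± 0.22, adjusted p = 3.95e-06 by limma). PLK2 read 5.87, 5.69 and 5.45 against 7.63, 7.54 and 7.55 in scramble. ACER2 read 5.92, 5.76 and 6.04 against 7.84, 7.49 and 7.89 in scramble. In all 3 genes every array labelled ONECUT2 shRNA lay far below every scramble array. Other metabolic genes were lower by 1.35 (SESN1), 0.90 (SESN2) and 0.73 (TIGAR), while TP53I3 lay under 4 in both groups.

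Of repair genes 3 of 4 were lower, of death and survival genes 4 of 8, with 4 not called, and of feedback genes 2 of 3. TP53INP1 read 8.87, 9.01 and 8.91 in arrays labelled ONECUT2 shRNA, against 10.34, 10.43 and 10.29 in scramble, 2.69-fold apart. PHLDA3 read 5.17, 5.22 and 5.16 against 6.44, 6.37 and 6.16 in scramble, and GADD45A read 8.78, 8.85 and 8.79 against 10.03, 9.95 and 10.24. DDB2 was 2.04-fold lower, FAS 1.72-fold, RRM2B 1.45-fold and TNFRSF10B 1.36-fold. With the mean of its probe sets TNFRSF10B had a log2 change of -0.23 and was not called. That mean includes its probe sets near background. Among feedback genes PPM1D was 1.65-fold and CCNG1 1.38-fold lower. MDM2 had a log2 change of 0.34 ± 0.16 and did not pass (adjusted p = 0.123 by limma), and 1 of its 5 probe sets was called higher.

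The RNA and protein genes were all lower. RPS27L had the smallest p of these 3, reading 13.03, 13.04 and 13.08 in arrays labelled ONECUT2 shRNA and 13.54, 13.59 and 13.63 in scramble (log2 change -0.53 ± 0.05, adjusted p = 1.87e-06 by limma). FBXO22 was 1.41-fold lower. ZMAT3 read 7.02, 6.06 and 6.37 against 7.85, 8.34 and 6.74 in scramble, so its groups overlapped, and its call was lost without scramble replicate 1 or 2 or without shRNA replicate 2 or 3. XPC was lower by 0.34, a call lost in 4 of 6 fits without 1 array. The members that did not pass besides MDM2 and TP53I3 were SFN, GDF15, PLK3, PERP, AEN, TRIAP1, CYFIP2 and POLH, with changes between -0.35 and 0.04. The other tested probe set of CYFIP2 was called higher, at 0.53 (adjusted p = 0.016 by limma).

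**Figure D3:**
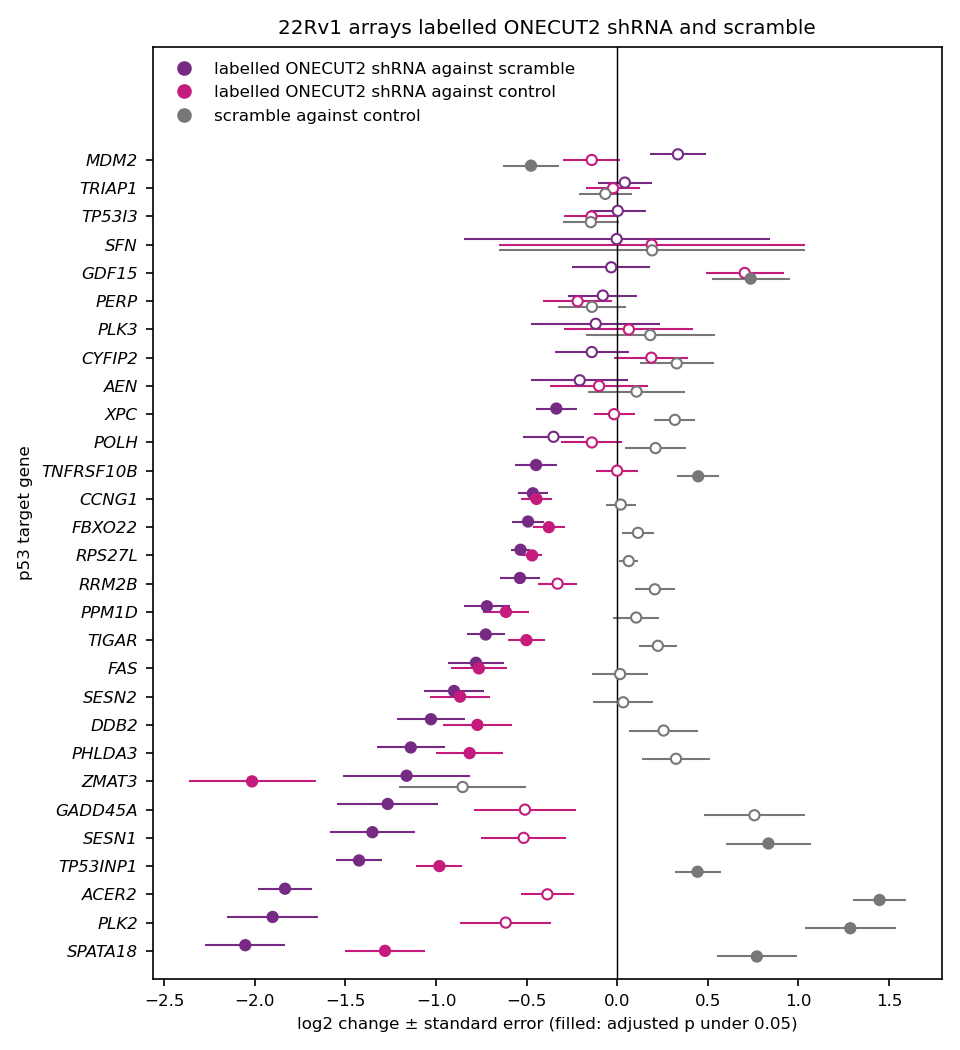
Log2 change of each tested p53 target gene (horizontal axis, point with standard error) in 22Rv1 arrays labelled ONECUT2 shRNA against scramble (purple) and against control (pink), and in scramble against control (grey), filled where the adjusted p was under 0.05. No purple or pink filled point lies right of 0, and SPATA18 lies at -2.05 and -1.28.

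The scramble arrays were themselves not level with control. Against 22Rv1 control, the arrays labelled scramble had 7 members higher and 1 lower (adjusted p under 0.05, limma), where 12.5% of all genes were called higher, 9.4% lower and 21.9% in either direction. Of all called genes, 57% were higher, and 43.7% with arrays centred on the genes tested. ONECUT2 was lower there by 1.41 on the log2 scale. ACER2 was 2.73-fold, PLK2 2.44-fold, SESN1 1.78-fold, SPATA18 1.71-fold, GDF15 1.67-fold, TNFRSF10B 1.36-fold and TP53INP1 1.36-fold higher. MDM2 was 1.39-fold lower. These counts rested on few arrays: 3 members were called without control replicate 1, and 4 without control replicate 3 or without scramble replicate 1. For 16 members all scramble arrays lay above the controls, against 30.1% of all genes, and for 1 (PERP) below, against 19.9%. MDM2 was called although its arrays overlapped. The other 21 members did not pass, among them GADD45A at 0.76 ± 0.28 and ZMAT3 at -0.85 ± 0.35.

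The arrays labelled ONECUT2 shRNA were also set directly against 22Rv1 control. There 12 members were lower and 0 higher (adjusted p under 0.05, limma), while 2.11% of all genes were called lower, 2.35% higher and 4.46% in either direction. For 18 members all 3 arrays lay below the controls, against 15.2% of all genes, and for 2 (GDF15 and SFN) above, against 19.6%. ZMAT3 fell most, reading 7.02, 6.06 and 6.37 against 7.97, 8.86 and 8.67 in control, a 4.04-fold difference (log2 change -2.02 ± 0.35, adjusted p = 0.0033 by limma). SPATA18 was lower by 1.28, TP53INP1 by 0.98, SESN2 by 0.87, PHLDA3 by 0.81, DDB2 by 0.77 and FAS by 0.76. PPM1D, TIGAR, RPS27L, CCNG1 and FBXO22 were lower by between 0.38 and 0.61. With the mean of their probe sets, ZMAT3 and FBXO22 had log2 changes of -0.74 and -0.16 and were not called. The 17 members that did not pass lay between -0.62 (PLK2) and 0.70 (GDF15). The count was 7 without control replicate 3 and 6 without shRNA replicate 2. This comparison and that against scramble share the arrays labelled ONECUT2 shRNA, so their calls are not independent.

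Between LNCaP overexpression and the arrays labelled ONECUT2 shRNA against scramble, which share no array, 16 members were higher in one and lower in the other. These are 16 of the 23 members higher in LNCaP and 16 of the 19 lower in the shRNA comparison. With 23 and 19 of 29 members called, an overlap of this kind follows largely from the counts alone. The shares of all genes below rest on lower call rates and are no like background. Over all genes tested, 19.8% of those higher in LNCaP overexpression were lower in arrays labelled ONECUT2 shRNA, and 41.8% of those lower there were higher in LNCaP overexpression. The direction of the shRNA comparison is that of the labels, which 3 of 4 ONECUT2 probe sets go against.

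**Figure D4:**
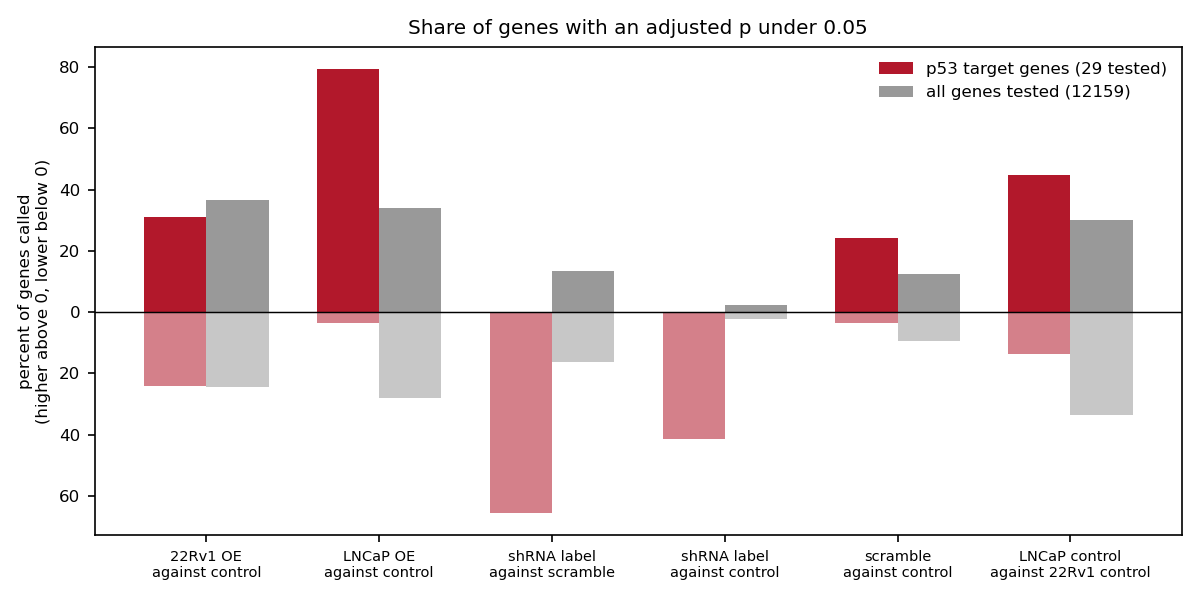
Percent of genes called higher (above 0) or lower (below 0) at an adjusted p under 0.05 in each comparison, for the 29 tested p53 target genes (red) and all genes tested (grey). The members' upward bar in LNCaP overexpression stands for 23 genes, beside 34.1% of all genes, and the downward bars of the arrays labelled ONECUT2 shRNA for 19 against scramble and 12 against control, beside 16.1% and 2.11%.

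At baseline the share of p53 targets that differed between the lines in either direction was near that of all genes, but the members leaned higher in LNCaP. The median log2 difference, LNCaP minus 22Rv1, was 0.29 over the members and -0.04 over all genes. LNCaP control exceeded 22Rv1 control for 13 members and was lower for 4 (adjusted p under 0.05, limma), where 30.2% of all genes were called higher, 33.5% lower and 63.6% in either direction. A fit of the control arrays alone called more: 18 members higher and 7 lower, and 9189 of the 12159 genes in either direction. All 3 LNCaP control arrays lay above those of 22Rv1 for 18 members and below them for 7, against 37.5% and 41.6% of all genes. PLK2 read 9.10, 10.01 and 9.80 in LNCaP control and 6.27, 6.23 and 6.36 in 22Rv1 control, 10.2-fold higher. SESN1 was 3.71-fold, GDF15 2.37-fold, PHLDA3 2.15-fold, TNFRSF10B 2.09-fold and TIGAR 2.06-fold higher in LNCaP. SFN was 54.7-fold lower, at 7.09, 7.09 and 7.38 in LNCaP control and 12.98, 12.94 and 12.95 in 22Rv1 control. XPC, CYFIP2 and RRM2B were lower by between 0.39 and 0.61. ACER2, POLH, TP53INP1, CCNG1, FAS and RPS27L were higher by between 0.29 and 0.86, though 1 of the 4 FAS probe sets was called lower, at -0.44. TP53I3 was at least 1.29-fold higher, with all 22Rv1 control values under 4. The other 12 members did not pass, among them GADD45A and DDB2, with differences of -0.02 ± 0.28 and -0.05 ± 0.19. MDM2 and ZMAT3 did not pass either, but 2 of 5 MDM2 and 1 of 4 ZMAT3 probe sets were called higher. Their largest differences were 2.165 and 2.364.

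**Figure D5:**
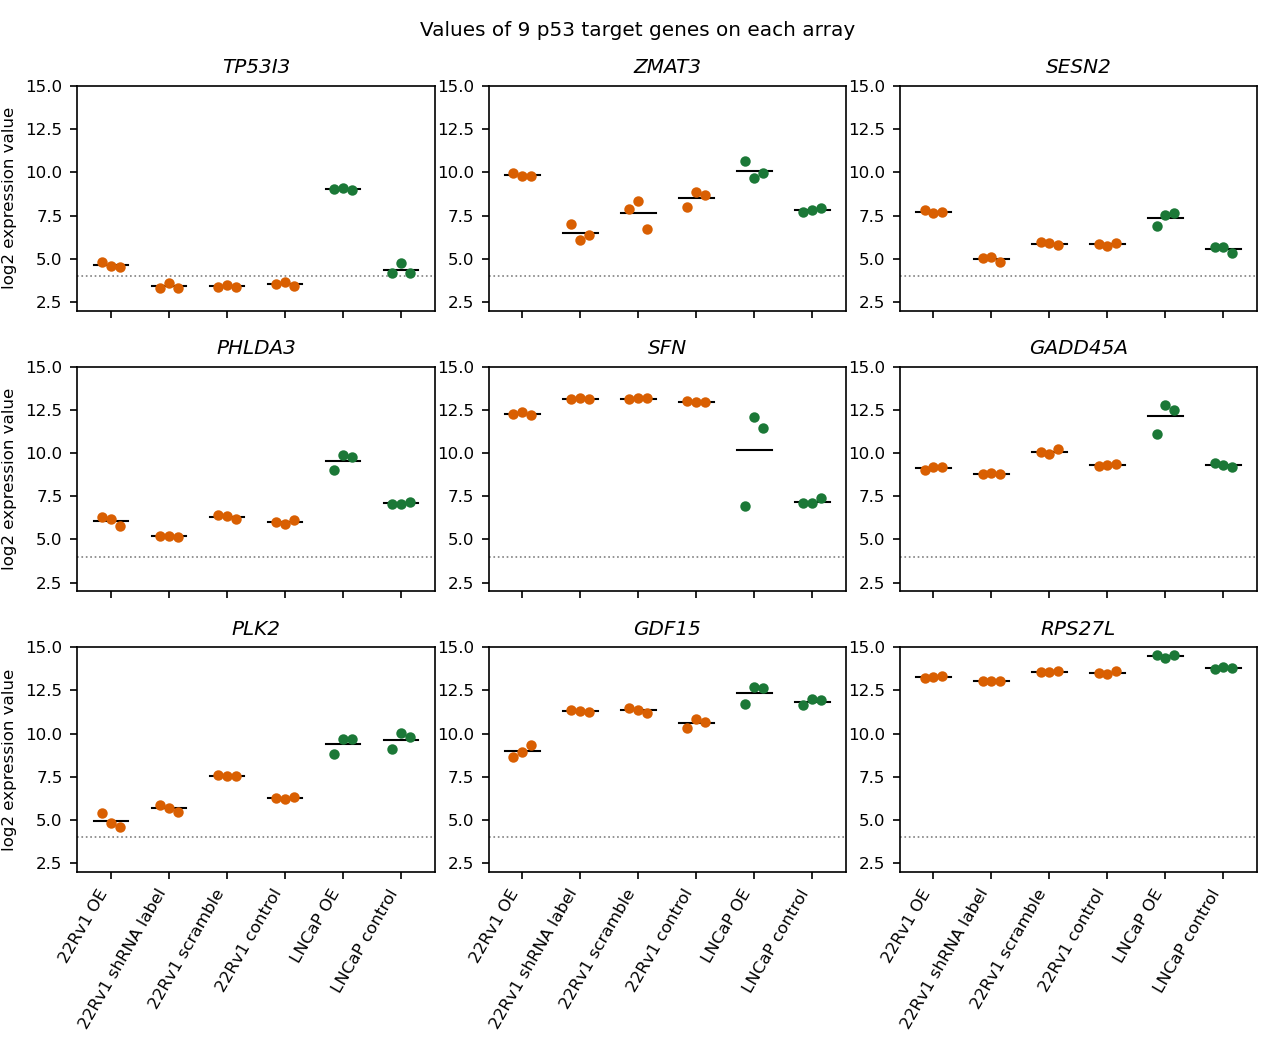
Log2 expression values (vertical axis) of 9 p53 target genes on each array, by group, with 22Rv1 in orange, LNCaP in green, a black line at each group mean and a dotted line at 4, the level used in the filter. TP53I3 lies between 9.01 and 9.10 in LNCaP overexpression and at 4.82 or below elsewhere, and 1 of the 3 LNCaP overexpression arrays of SFN stays with the controls.

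Other genes of the pathway were read from lists made with earlier results known. Of 27 further tested p53 targets, 16 were higher and 4 lower in LNCaP overexpression, 11 higher and 10 lower in 22Rv1 overexpression, and 1 higher and 7 lower in arrays labelled ONECUT2 shRNA against scramble. The shares of all genes called higher and lower were 34.1% and 28% in LNCaP, 36.5% and 24.3% in 22Rv1, and 13.4% and 16.1% in the shRNA comparison. CDKN1A, the p21 inhibitor of cyclin-dependent kinases, read 10.30, 10.73 and 10.72 in LNCaP overexpression, against 7.19, 6.99 and 7.24 in LNCaP control, a 10.9-fold rise. In 22Rv1 it read 6.53, 6.57 and 6.52 with overexpression and 5.83, 6.03 and 5.99 in control, 1.51-fold higher. It read 4.96, 4.83 and 4.53 in arrays labelled ONECUT2 shRNA and 6.21, 6.31 and 6.25 in scramble, 2.80-fold lower. In none of these 3 comparisons did the CDKN1A arrays overlap. TNFRSF10D, a decoy receptor for TRAIL, rose by 3.83 ± 0.25 in LNCaP, and BTG1, an antiproliferative protein, fell by 1.44 there. SUSD6 and FUCA1 rose in 22Rv1 overexpression, by 1.60 and 1.81.

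Of 12 cell cycle genes that p21 represses through the DREAM complex, 12 were lower with overexpression in LNCaP and 12 in 22Rv1, by medians of -4.90 and -2.44. Of all genes tested, 28% were called lower in LNCaP and 24.3% in 22Rv1. FOXM1, a mitotic transcription factor, fell by 4.87 in LNCaP and 2.80 in 22Rv1, and CDC20, an activator of the anaphase ubiquitin ligase, by 5.62 and 2.71. In arrays labelled ONECUT2 shRNA against scramble, 2 of the 12 were higher, MYBL2 and FOXM1, by 0.79 and 0.35. That share was near the 13.4% of all genes called higher there. Of 18 measured regulators of p53, 7 were higher and 7 lower in LNCaP overexpression, and 8 higher and 4 lower in 22Rv1 overexpression, where 62.2% and 60.8% of all genes were called in either direction. The checkpoint kinases CHEK1 and CHEK2 fell in both, CHEK1 by 3.88 in LNCaP and 2.57 in 22Rv1. MDM4, which inhibits p53, read 10.11, 10.32 and 10.67 in LNCaP overexpression, against 11.12, 10.98 and 10.96 in LNCaP control, and fell by 0.65. In 22Rv1 MDM4 read 12.24, 12.22 and 12.36 with overexpression and 11.33, 11.38 and 11.42 in control, and rose by 0.90. The difference between the lines was -1.55 ± 0.17 (adjusted p = 2.4e-06 by limma).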

How the data were processed

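Total RNA of 18 samples was hybridised to Affymetrix U133 Plus 2.0 arrays. The values deposited by the authors are log2 expression values per probe set, made with GCRMA per the submitters' processing notes. For its version, and for whether all arrays were normalised together, the sources used here give nothing. As commonly run, GCRMA corrects background by probe sequence and gives arrays a common distribution, so differences are relative to the bulk of genes and low values have no clear order.

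Of 54675 probe sets, 41091 had 1 gene symbol, 1801 several and 11721 none in the platform annotation, beside 62 control probe sets. Symbols of 41037 were updated through their gene ID. Each gene was represented by 1 probe set, and 12159 of 19775 genes had log2 values over 4 on at least 3 arrays.

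All 18 arrays entered 1 limma fit (limma 3.58.1, R 4.3.3) with 6 group means and an intensity trend with robust variances. Benjamini-Hochberg adjustment of p-values ran over all genes tested, with 0.05 as the threshold, and errors of log2 changes are standard errors (SE). The number of arrays limits precision. The code was tested on simulated data. A fold against a group wholly under 4 is a bound, computed against 4. Groups came from the labels. All 32 members were described where measured. Of each other list up to 3 called genes a comparison were named by smallest p, and CDKN1A, MDM4 and ONECUT2 always. The members and lists were chosen with earlier results of these data known.

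Alternatives were other filters, the mean over a gene's probe sets, centring of arrays, plain variances, only the groups compared, array weights, a replicate block and leaving out each array. Centring on the median of the genes tested was chosen after seeing the data.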

Additional observations from a re-analysis of the deposited data

Results flagged for a closer look

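For 23 of the 29 tested members the effect of ONECUT2 overexpression differed between the lines in the test of the difference itself (limma, adjusted p under 0.05), and 44.7% of all genes did so. Values are the LNCaP log2 change minus the 22Rv1 log2 change. Among growth arrest genes the difference was 3.66 for SFN, 3.01 for GADD45A, 2.14 for GDF15 and 1.08 for PLK2. The fitted value for PLK3 was 2.11, but its controls lay under 4 in both lines, so its difference was not measurable. SFN rests on 2 of 3 LNCaP overexpression arrays, since replicate 1 lay below the controls. Among metabolic and stress genes it was 1.85 for SPATA18, 1.83 for ACER2, 1.09 for SESN1 and 0.72 for TIGAR. The fitted value for TP53I3 was 3.58, with 22Rv1 controls under 4, and is no measured size. Death and survival genes differed by 2.39 (PHLDA3), 1.96 (AEN), 1.53 (FAS), 1.26 (TRIAP1), 1.22 (CYFIP2) and -0.82 (TNFRSF10B). Repair genes differed by 1.72 (DDB2), 0.80 (XPC) and 0.58 (RRM2B). The feedback genes PPM1D and MDM2 differed by 1.52 and 0.62, and RPS27L and FBXO22 by 0.91 and 0.80. TNFRSF10B had the larger rise in 22Rv1. PPM1D, RPS27L and ACER2 fell in 22Rv1 and rose in LNCaP. Without LNCaP overexpression replicate 1 the difference was called for 24 members, 22 higher and 2 lower.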

How the results depend on the processing

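No called change of a p53 target gene was reversed under any alternative, and 3127 of the alternative values of single members kept their direction and side of the threshold. Another 123 lost the call, 87 gained it and 64 changed direction without a call in either fit. The count of members called was 13 to 15 without 1 array in 22Rv1 overexpression, 23 to 26 in LNCaP overexpression, 17 to 19 in arrays labelled ONECUT2 shRNA against scramble, 21 to 24 for the difference between lines, and 16 to 17 between the control groups of the lines. It was 3 to 7 in scramble against control, where 8 were called with all arrays, and fell to 3 without control replicate 1 and to 4 without control replicate 3 or scramble replicate 1. It was 6 to 12 in arrays labelled ONECUT2 shRNA against control, where 12 were called with all arrays, with 7 without control replicate 3 and 6 without shRNA replicate 2. With the mean of all probe sets 4 members were called in scramble against control, and with array weights 16. In arrays labelled ONECUT2 shRNA against control 20 were called in a fit of these groups alone and 19 with array weights. Fits of only the groups compared called 21 members in 22Rv1 overexpression, 21 in LNCaP overexpression and 25 between the lines' control groups. They called 8987, 5402 and 9189 of the 12159 genes tested. The fit of all arrays gave 16, 24 and 17 members, and array weights gave 23, 22 and 23. The array-weights fit stopped before reaching its tolerance. The causes were not tested.

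With the replicate number as a block, 14 members were called in 22Rv1 overexpression, 25 in LNCaP overexpression, 19 in arrays labelled ONECUT2 shRNA against scramble, 23 for the difference between lines, 8 in scramble against control, 13 in arrays labelled ONECUT2 shRNA against control and 17 between lines. Deviations of same-numbered arrays were correlated for overexpression against control in each line and for ONECUT2 shRNA against scramble. The values lay between -0.217 and 0.322, the largest for replicate 3 of the shRNA and scramble labels. They cannot tell whether same-numbered arrays shared a batch, and the labels state no pairing. Values under 4 lie near background and limit TP53I3 and PLK3 to bounds.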
